A study of Mus musculus with 4 samples.

Results

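The collagen genes were taken as every gene of the count matrix whose symbol reads Col, a number, a and a number, which gave 42 of 16892 genes. Of these, 33 had at least 20 UMIs (unique molecular identifiers, each standing for 1 captured RNA molecule) in at least 1 cell population, and the other 9 had between 1 and 47 UMIs in all cells together. Collagen RNA came to 47298 UMIs, of which 21417 were from fibrillar collagens, 9157 from type IV collagens and 16724 from all others. The genes were identified by symbol alone, so no measured value entered their choice.

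The tissues were the caput, corpus and cauda epididymis, the coiled tube through which sperm mature after leaving the testis, and the vas deferens that follows it. They came from wild-type FVB/NJ male mice aged 10 to 12 weeks, with no treatment. For each of the 4 regions, 8 pieces of tissue from the same 4 mice were pooled, dissociated with collagenase IV, trypsin and DNase, and run as 1 single-cell library on the 10x Chromium 3′ platform. Region and library therefore cannot be told apart, and regions, with 1 library each, could not be tested against each other. In the order caput, corpus, cauda and vas deferens, the libraries held 1433, 2325, 1616 and 3506 cells, and 4408989, 6602962, 4882822 and 10744928 UMIs.

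Cells were grouped by the deposited annotation into 7 types and 34 populations. Population names follow the published ones where the study gives a name. Others, such as main basal, low-UMI basal and low-UMI clear cells, are descriptive. A level is the summed UMI count of a gene in a set of cells, divided by all UMIs of the same set and multiplied by 1000000 (UPM), with 95% intervals in parentheses that cover counting error only and not variation between animals or preparations. Because reads were counted as 3′ tags, a level does not scale with transcript length. Genes may still differ in how well their RNA is captured and counted, which was not checked, so ratios between genes are descriptions. The clusters were made from these same counts, so differences between cell types are given as descriptions and were not tested, although most types occur in all 4 libraries. The paper names collagen expression as its basis for the stromal label. High collagen levels in stromal cells therefore follow in part from the naming. A total of 43 barcodes occurred in more than 1 library, in 86 cells.

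Collagens are triple-helical proteins built from 3 alpha chains, and each gene encodes 1 chain. Fibrillar collagens (types I, II, III, V, XI, XXIV and XXVII) form or regulate the rope-like fibrils of connective tissue and are classically made by fibroblasts. Type IV collagen forms the sheet-like network of basement membranes, the thin matrix under epithelia and around vessels and muscle cells, from alpha 1 and alpha 2 chains in most tissues and from alpha 3 to alpha 6 chains in some. The remaining types include the beaded filaments of type VI, types that bind to fibril surfaces, the proteoglycan-like types XV and XVIII of basement membrane zones, the anchoring fibrils of type VII and membrane-spanning types such as XIII, XVII and XXIII.

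The type labels were first set against defining markers. The 5 stromal markers summed to 6825 UPM in stromal cells, led by Dcn, against 115 UPM in muscle cells and 58.9 UPM in basal cells. Markers of muscle summed to 34519 UPM in muscle cells and 2886 UPM in stromal cells, where the myofibroblasts hold contractile genes. Endothelial markers reached 3158 UPM in endothelial cells, and basal markers, led by Krt14, 4031 UPM in basal cells. Of the 7 marker lists, 5 were highest in their own type. The principal list, at 3589 UPM in principal cells, was higher in basal (6040 UPM) and clear cells (4712 UPM), which share epithelial genes. The immune list was higher in principal cells where 1 of its genes, Cd52, stood at 20559 UPM.

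Across types, collagen RNA was concentrated in the stroma, the type that the paper labelled by its collagen genes. Summed over the 42 genes it made up 0.568% of stromal UMIs (0.562 to 0.573), a level of 5675 UPM in 2222 cells, 3.12 times (3.00 to 3.24) the 1821 UPM of muscle cells. Endothelial cells stood at 1542 UPM, basal cells at 772 UPM, clear cells (the acidifying epithelial cells) at 347 UPM, principal cells (the main secretory epithelium) at 113 UPM and immune cells at 92.8 UPM. The intervals of neighbouring types in this order do not overlap except for the last pair, 107 to 120 UPM in principal and 69.7 to 121 UPM in immune cells. Of the 33 better measured genes, 21 were highest in stromal, 4 in muscle, 4 in basal, 3 in endothelial and 1 in principal cells. Of all 12868 genes with 20 UMIs in a type, 11.7% were highest in stromal, 16% in muscle and 8.3% in basal cells.

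In the caput, corpus, cauda and vas deferens libraries as wholes, the collagen sum was 1117, 1878, 2042 and 1862 UPM, and the fibrillar part of it 24.0%, 39.0%, 55.7% and 49.2%.

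The classes were shared out differently among the types. Fibrillar collagens were 54.9% (54.4 to 55.4) of collagen UMIs in stromal cells, 22.2% in endothelial, 17.8% in muscle and 3.33% in basal cells. Type IV collagens were 51.6% (48.8 to 54.3) of collagen UMIs in endothelial and 49.8% (47.9 to 51.7) in muscle cells, with overlapping intervals, against 15.4% in stromal cells. The other types made up 69.9% of collagen UMIs in basal and 80.1% in clear cells, most of it Col18a1. On the UPM scale, the type IV sum pooled over libraries was 872 UPM in stromal, 907 UPM in muscle and 795 UPM in endothelial cells. Within libraries these 3 types lay further apart, at 869, 1004 and 574 UPM in the vas deferens and 804, 430 and 991 UPM in the cauda.

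**Figure D1:**
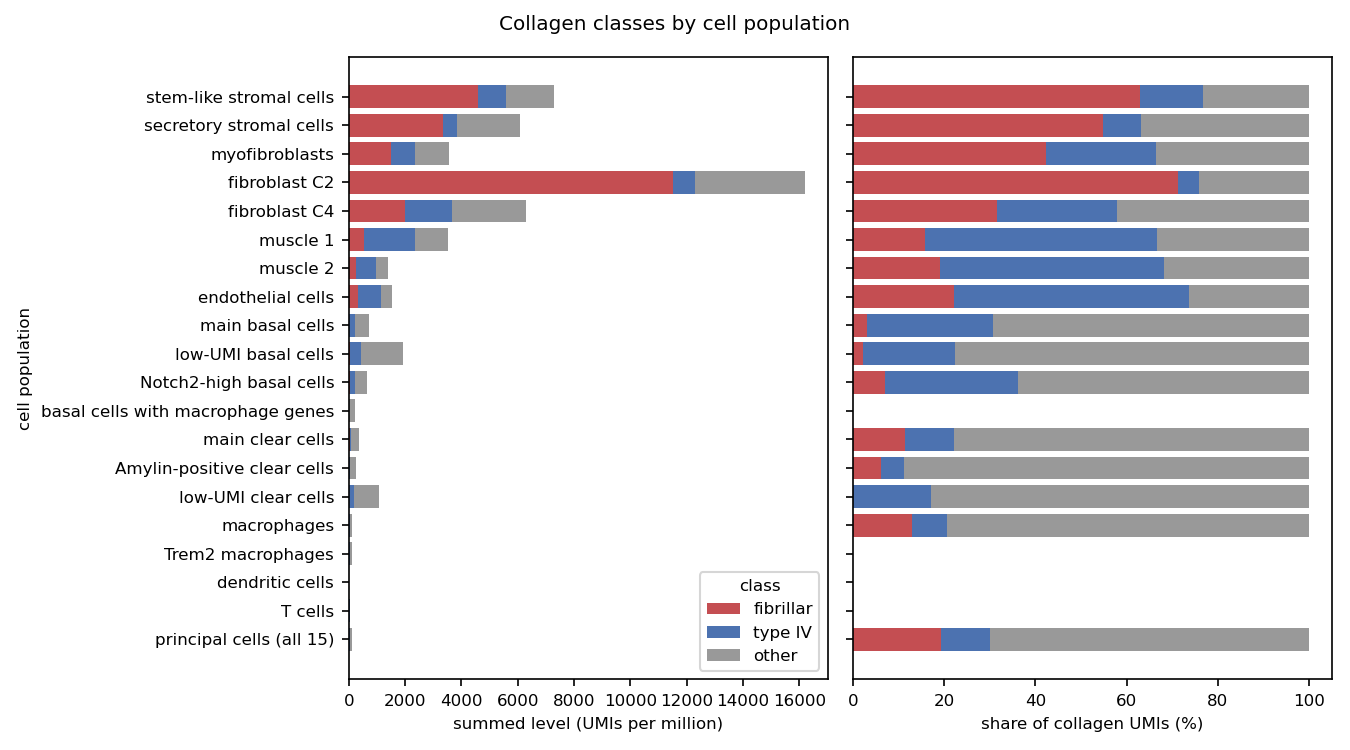
Summed collagen levels by population, with the 15 principal populations pooled, in UPM (left, bars divided into fibrillar, type IV and other collagens) and the share of each class in percent of collagen UMIs (right, drawn for rows with at least 20 collagen UMIs). Fibroblast C2 stands highest at 16204 UPM, with most of its bar fibrillar, while type IV takes about as much as everything else in the muscle and endothelial bars.

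A gene was called restricted to a type if it had at least 20 UMIs there and a level no less than 4-fold above that of each remaining type, with lower levels raised to the floor of 3 UMIs. This held for 11 of the 34 collagen genes that had 20 UMIs in a type, against 10.4% of all 12868 genes that could be called. Of the 11, 9 were restricted to stromal cells, where 1.4% of all genes were, and 2 to basal cells, where 0.552% of all genes were. The stromal count is not independent of the label, which rests on collagen genes. No collagen gene was restricted to muscle, endothelial, clear, principal or immune cells, where 1.45%, 1.42%, 1.31%, 1.95% and 2.32% of all genes were. The 9 stromal genes were Col1a1, Col1a2, Col3a1, Col5a1, Col5a2, Col11a1, Col12a1, Col4a4 and Col8a2, and the 2 basal genes were Col17a1 and Col7a1. Col4a4, at 4.09-fold over basal cells, and Col8a2, at 4.19-fold over the immune floor, stood just inside the threshold, and Col15a1 at 3.85-fold and Col27a1 at 3.63-fold just outside it. Col8a2 fell below 4-fold whichever library was left out, at 2.55-fold to 3.44-fold, in cells with at least 1000 UMIs (3.83-fold) and with median-of-ratios size factors (2.82-fold), and Col4a4 did so without the corpus (2.70-fold) and the cauda (3.61-fold), and by less in the same cells (3.999-fold) and with those size factors (3.83-fold). Col7a1 did so without the caput (3.55-fold), Col5a2 (3.85-fold) and Col11a1 (3.20-fold) without the cauda, and Col12a1 (2.28-fold) and Col5a1 (3.05-fold) without the vas deferens.

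Among the fibrillar genes, Col1a2 and Col1a1, which encode the chains of type I collagen, were the most abundant. Col1a2 (chromosome 6: 4504814 to 4541544 in GRCm38) reached 1195 UPM in stromal cells, 134 UPM in muscle cells and 113 UPM in endothelial cells, and 9.4 UPM or less in basal, principal, immune and clear cells. Col1a1 (chromosome 11: 94936224 to 94953042) was at 913 UPM in stromal cells and 69.4 UPM in endothelial cells, a 13.1-fold step. Col3a1, which encodes the single chain of type III collagen, was at 767 UPM in stromal and 123 UPM in endothelial cells. In stromal cells of the caput, corpus, cauda and vas deferens, Col1a2 stood at 519, 864, 1519 and 1528 UPM, Col1a1 at 353, 776, 1504 and 930 UPM and Col3a1 at 343, 550, 1278 and 841 UPM. All 3 were thus lowest in the caput library. The libraries held the stromal populations in unequal numbers, with myofibroblasts making up 184 of 259 stromal cells in the caput and 209 of 1015 in the vas deferens, and the part of this in the levels was not tested.

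Free RNA in droplets can leave a background under these levels. Col1a2 in principal cells, an epithelial type, stood at 1.74, 9.87, 3.45 and 7.26 UPM across the libraries in the order given above. Whether free RNA, doublets or expression gave these UMIs was not tested, so fibrillar levels of this size are not read as expression. After thinning each cell to 1000 UMIs, 54.2% of 1695 stromal cells had a Col1a2 UMI (69.6% unthinned), 17.6% of muscle cells, 9% of endothelial cells, 0.898% of 1894 principal cells and 0 of 158 immune cells (3 of 195 unthinned). The count of 0 leaves room for at most 1.90% of immune cells with a UMI at this depth, and does not limit the share that express the gene. Thinning left out 527 stromal and 2062 principal cells, whose types have median depths of 2716.5 and 934.5 UMIs. Within the stroma, the thinned share was 88.5% of fibroblast C2 cells, 79.1% of stem-like stromal cells, 61.1% of secretory stromal cells, 38.2% of myofibroblasts and 29.8% of fibroblast C4 cells.

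By population, fibroblast C2 (153 cells) had the most collagen RNA, 16204 UPM (15870 to 16543), of which 71.2% was fibrillar. It was followed by stem-like stromal cells at 7290 UPM, fibroblast C4 at 6308 UPM, secretory stromal cells at 6088 UPM, myofibroblasts at 3559 UPM and muscle 1 at 3531 UPM. The intervals of fibroblast C4 and secretory stromal cells overlap, as do those of myofibroblasts and muscle 1. The order was not the same within libraries. In the vas deferens, fibroblast C2 was at 7190 UPM, stem-like stromal cells at 7127 UPM, secretory stromal cells at 5959 UPM and fibroblast C4 at 5116 UPM, and in the cauda fibroblast C4, at 10788 UPM, stood above stem-like stromal cells at 8403 UPM in 11 cells. Col1a1 and Col1a2 were at 4079 and 4072 UPM in fibroblast C2, and Col3a1 at 2877 UPM. Fibroblast C2 was not even across libraries, with 30412 UPM in 36 corpus cells, 14668 UPM in 74 cauda cells and 7190 UPM in 39 vas deferens cells. In the corpus, 741 Col1a1 UMIs lay in 27 of the 36 cells, and 1 cell held 18.5% of them.

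The upstream sequence of Col3a1 is shown because the gene, the third most abundant collagen, has a TATA motif there. Motifs were searched on both strands of the 250 bases before the RefSeq start of each gene (GRCm38.p6), where 34 collagen genes matched an entry. The TATA motif, spelled TATAAA, was found in 4 of the 34 collagen genes and in 12.97% of 27025 genes. The CCAAT box was found in 12 of the 34 and in 34.46% of genes. The GC box, spelled GGGCGG, was found in 21 of the 34 and in 32.94% of genes, and none of these motifs contains another. A match is a description of letters and not a measured site. Capitals mark the motif in the sequence at chr1:45311288-45311537, plus strand.
Col3a1: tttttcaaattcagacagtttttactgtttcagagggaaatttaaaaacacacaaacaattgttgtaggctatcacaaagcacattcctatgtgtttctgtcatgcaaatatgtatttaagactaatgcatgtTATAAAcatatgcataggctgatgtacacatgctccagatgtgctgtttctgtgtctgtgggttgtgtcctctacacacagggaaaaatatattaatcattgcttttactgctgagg

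The minor fibrillar genes Col5a1, Col5a2, Col5a3, Col11a1 and Col27a1 had the same leading type at lower levels. Col5a2 and Col5a1, chains of type V collagen that is built into type I fibrils, were at 86.5 and 50.3 UPM in stromal cells, 4.88 and 10.5 times the next type. Col11a1 was at 35.8 UPM in stromal cells, 13.6-fold over muscle cells, and at 136 UPM in fibroblast C2. Col27a1 was highest in stem-like stromal cells at 166 UPM, and Col5a3 in the same cells at 28.0 UPM. By type, Col5a3 in stromal cells did not differ beyond counting error from endothelial cells, at 1.13-fold (0.541 to 2.71). Col11a2 and Col24a1 stayed below 20 UMIs in every population, and Col2a1, the collagen of cartilage, was not analysed here.

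**Figure D2:**
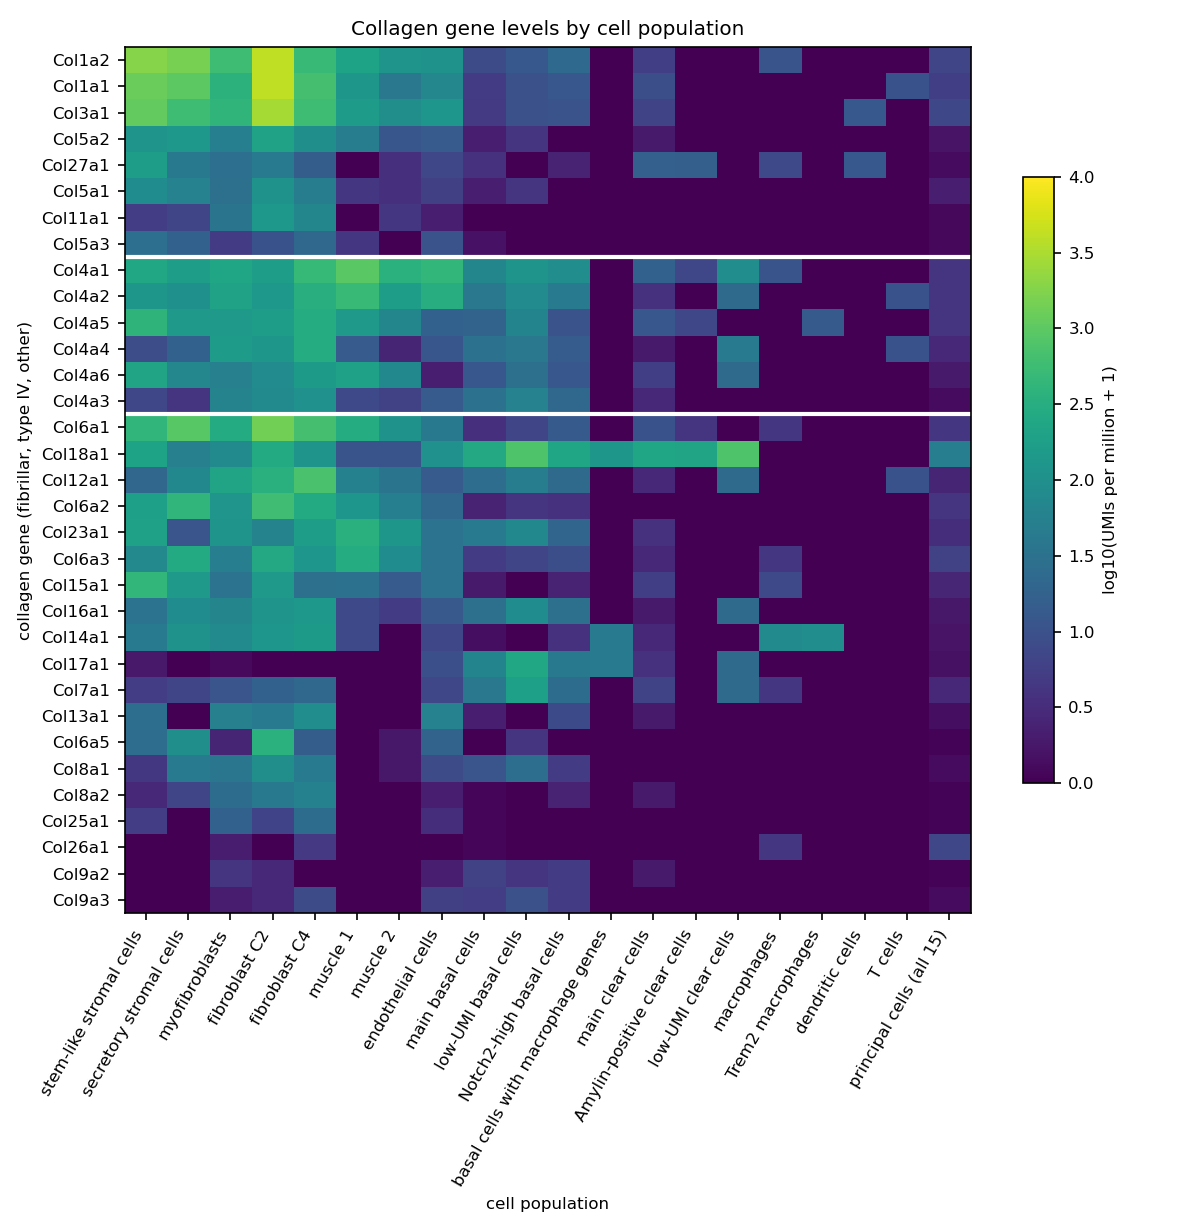
Levels of the 33 collagen genes with at least 20 UMIs in a population, with white lines between fibrillar, type IV and other genes and the 15 principal populations pooled in the last column. The colour is log10(UPM + 1). The fibrillar rows are brightest in the stromal columns, the Col4a1 and Col4a2 rows extend into muscle and endothelial cells, and Col17a1 and Col7a1 are brightest in basal cells.

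Type IV collagen genes lie in 3 pairs that are read in opposite directions from neighbouring starts. Col4a1 and Col4a2, the common chains, lie on chromosome 8 and the annotated genes overlap by 22 bases at their starts. Both were high in muscle and endothelial cells, Col4a1 at 479 UPM in muscle, 448 UPM in endothelial, 232 UPM in stromal and 72.4 UPM in basal cells, and Col4a2 at 239, 305, 178 and 41.6 UPM in the same order. Pooled over libraries, the muscle and endothelial levels of Col4a1 do not differ beyond counting error, with a ratio of 1.07 and a lower bound of 0.944. Within libraries they lay apart in opposite directions, with Col4a1 at 533 UPM (493 to 575) in muscle and 345 UPM (293 to 404) in endothelial cells of the vas deferens, and at 225 UPM (170 to 291) and 535.5 UPM (383 to 729) in those of the cauda. After thinning to 1000 UMIs, Col4a1 was found in 43.5% of muscle cells and 29.5% of endothelial cells. The ratio of Col4a1 to Col4a2 was 1.15 (1.04 to 1.26) in myofibroblasts, 1.47 (1.25 to 1.73) in endothelial cells, 1.76 (1.47 to 2.10) in main basal cells and 2.07 (1.75 to 2.44) in muscle 2. These ratios are pooled over libraries that differed within a population, from 0.776 (0.494 to 1.21) in the caput to 2.53 (1.86 to 3.497) in the vas deferens in main basal cells, from 1.02 to 2.15 in endothelial cells and from 0.847 to 1.28 in myofibroblasts.

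Col4a3 and Col4a4, chains of the network best known from the kidney filter and the lung, start 71 bases apart on chromosome 1. Col4a4 was at 122 UPM in stromal and 29.9 UPM in basal cells, and Col4a3 at 49.2 and 31.7 UPM. Pooled over libraries, Col4a4 stood at 302 UPM in fibroblast C4, 161 UPM in myofibroblasts and 129 UPM in fibroblast C2, and at 16.3 UPM in secretory and 7.9 UPM in stem-like stromal cells, which are nearly all from the vas deferens. In that library alone Col4a4 was at 21.4 UPM (11.4 to 36.5) in myofibroblasts, 12.2 UPM (5.27 to 24.1) in secretory and 5.51 UPM (2.02 to 12.0) in stem-like stromal cells. The ratio of Col4a3 to Col4a4 was 0.383 (0.328 to 0.445) in myofibroblasts and 0.341 (0.216 to 0.526) in fibroblast C4, against 0.994 (0.794 to 1.24) in main basal cells. The stretch between both starts, shown because the pair shares it, holds none of the 3 motifs (GRCm38, minus strand, chr1:82586850-82586920).
Between Col4a4 and Col4a3: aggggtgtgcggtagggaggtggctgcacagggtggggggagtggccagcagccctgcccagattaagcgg

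Col4a5 and Col4a6 start 1308 bases apart on chromosome X. Col4a5 was highest in stem-like stromal cells at 402 UPM, where Col4a6 reached 217 UPM. Their ratio was 2.71 in myofibroblasts and 1.86 in stem-like stromal cells, but 0.729 in muscle 1 and 0.943 in muscle 2, with intervals that include 1 in both muscle populations. In endothelial cells Col4a6 stood at 1.2 UPM against 448 UPM for Col4a1. The 250 bases before Col4a6 are shown because its level relative to Col4a5 parted muscle from stroma, with the GGGCGG motif on the opposite strand in capitals (minus strand, chrX:141474077-141474326).
Col4a6: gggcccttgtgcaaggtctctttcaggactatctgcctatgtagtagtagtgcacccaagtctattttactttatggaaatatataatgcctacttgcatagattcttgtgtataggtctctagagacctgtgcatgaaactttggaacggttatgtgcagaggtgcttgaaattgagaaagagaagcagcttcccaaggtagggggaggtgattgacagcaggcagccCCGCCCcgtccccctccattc

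**Figure D3:**
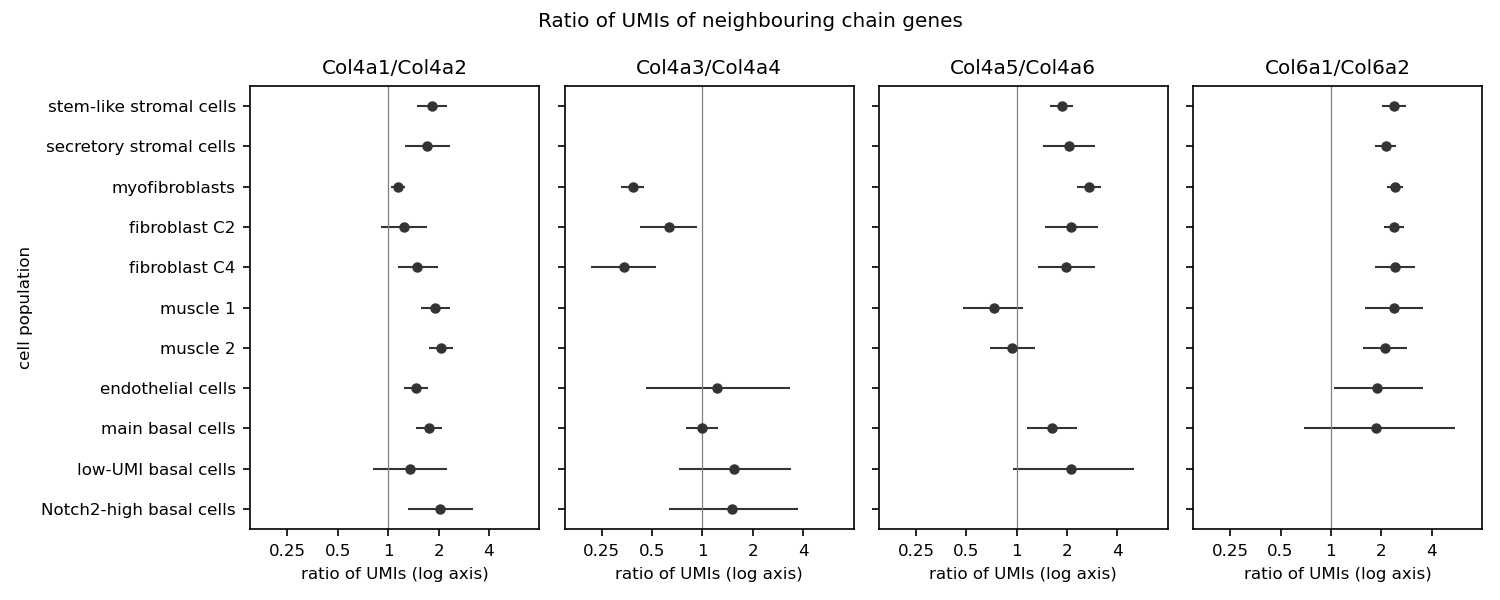
Ratio of the first to the second gene of 4 neighbouring collagen pairs by population (points), on log axes, with 95% counting intervals as bars and a line at a ratio of 1. Populations with few UMIs of a pair have no point. Col6a1 to Col6a2 stays between 2.09 and 2.41 in the stromal and muscle populations, whereas Col4a5 to Col4a6 runs from 0.729 in muscle 1 to 2.71 in myofibroblasts.

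Type VI collagen, a filament that links cells to the surrounding matrix, was the largest group outside the first 2 classes. Col6a1 was at 489 UPM in stromal, 148 UPM in muscle and 40.7 UPM in endothelial cells. It reached 1413 UPM in fibroblast C2 and 912 UPM in secretory stromal cells. Col6a2, 85161 bases from Col6a1 on chromosome 10 and read in the same direction, followed it closely, with Col6a1 at 2.38 times Col6a2 in both fibroblast C2 and stem-like stromal cells, 2.12 times in secretory stromal cells and 2.09 times in muscle 2. Col6a3, the third chain, was highest instead in muscle 1 at 294 UPM and secretory stromal cells at 277 UPM. The neighbouring fibrillar genes Col3a1 and Col5a2 were less even over the stromal and muscle populations, with ratios from 3.43 (1.86 to 6.73) in muscle 1 and 4.22 (3.35 to 5.36) in secretory stromal cells to 14.3 (11.8 to 17.5) in fibroblast C2.

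Col6a5, an alternative chain of type VI, was highest in fibroblast C2 (357 UPM) and secretory stromal cells (97.7 UPM) and next in stem-like stromal cells (25.4 UPM). The fibroblast C2 level came mainly from the corpus library, where 169 UMIs lay in 18 of 36 cells and 1 cell held 19.5% of them. Col6a4 and Col6a6 had 6 and 5 UMIs in all cells.

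Of the collagens that attach to fibril surfaces, Col12a1, Col14a1 and Col16a1 were highest in stromal cells. Col12a1 stood at 198 UPM in stromal cells, 5.21-fold over muscle cells, and at 719 UPM in fibroblast C4 and 351 UPM in fibroblast C2. Col16a1 was highest in stromal cells at 68.6 UPM and next in basal cells at 31.9 UPM. Col14a1 was at 82.9 UPM in stromal cells. It was the one collagen with a comparable level in immune cells, 54.98 UPM. Of its UMIs there, 25 lay in 16 of 104 macrophages, while Col1a2 stood at 5.2 UPM in the same type. The short-chain, sheet-forming Col8a1 and Col8a2 were at 36.4 and 21.6 UPM in stromal cells, and Col8a2 was 4.19-fold over the next type when the others are raised to the floor of 3 UMIs, which is highest in immune cells.

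Col15a1 and Col18a1, the basement membrane zone proteoglycans, parted between stroma and epithelium. Col15a1 was stromal, at 442 UPM in stem-like stromal cells, 139 UPM in secretory stromal cells and 138 UPM in fibroblast C2. Col18a1 was highest in the epithelium, at 288 UPM in basal and 247 UPM in clear cells, against 118 UPM in stromal, 103 UPM in endothelial, 49.9 UPM in principal and 9.8 UPM in muscle cells. In clear cells it was even across libraries, at 256, 242, 245 and 254 UPM in caput, corpus, cauda and vas deferens. In principal cells the same 4 values were 21.5, 64.8, 111 and 33.1 UPM, highest in the cauda library. After thinning, 28.2% of clear cells and 23.6% of basal cells had a Col18a1 UMI.

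Both collagens restricted to basal cells are known from epithelial anchorage, although Col18a1 and Col4a1 stood at higher levels there. Col17a1, a membrane-spanning collagen of hemidesmosomes, had 438 of its 456 UMIs in basal cells, a level of 70.8 UPM, 8.45-fold over the next type. Col7a1, the collagen of anchoring fibrils, was at 45.3 UPM in basal cells, 4.66-fold over stromal cells. In basal cells of the caput, corpus, cauda and vas deferens, Col17a1 stood at 104, 84.0, 38.7 and 35.5 UPM and Col7a1 at 85.8, 45.0, 26.1 and 17.0 UPM, so both were highest in the caput library and lowest in the vas deferens library. The sequence before Col7a1 is shown for the basal pair, with CCAAT (here on the opposite strand) and GGGCGG in capitals (plus strand, chr9:108953336-108953585).
Col7a1: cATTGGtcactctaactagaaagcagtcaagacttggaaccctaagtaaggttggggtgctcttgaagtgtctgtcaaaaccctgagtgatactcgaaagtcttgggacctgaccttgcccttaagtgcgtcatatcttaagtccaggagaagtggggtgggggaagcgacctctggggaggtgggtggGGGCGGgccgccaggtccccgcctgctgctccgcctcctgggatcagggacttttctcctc

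The remaining membrane-spanning collagens had other leading cells. Col23a1 was highest in muscle 1 at 344 UPM and stem-like stromal cells at 191 UPM. Col13a1 was at 89.0 UPM in fibroblast C4 and 58.7 UPM in endothelial cells, and Col25a1 at 24.9 UPM in fibroblast C4 and 16.7 UPM in myofibroblasts. Col26a1 was the one collagen highest in principal cells, with 58 of its 65 UMIs there. All 58 were in the vas deferens library, at 12.4 UPM (9.41 to 16.0), and none were found in principal cells of the caput, corpus or cauda, where a count of 0 allows up to 1.74, 2.11 and 1.72 UPM. Col9a2 and Col9a3, chains of a collagen best known from cartilage, had 46 and 42 UMIs in all, with Col9a2 highest in basal cells at 4.85 UPM.

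Myofibroblasts were the largest stromal population over all libraries, with 184, 420, 162 and 209 cells in caput, corpus, cauda and vas deferens, and the regions were set side by side within them. A gene was counted as higher or lower in the vas deferens (209 cells) than in the 3 epididymal libraries together (766 cells) if it had at least 20 UMIs in the group with the higher level and differed by at least 2-fold, with counts under 3 UMIs raised to 3. Of 27 collagen genes that could be called, 5 were higher, where 6.32% of 8968 genes were, 10 were lower, where 8.51% were, and 12 were neither. The vas deferens group held 608515 UMIs and the epididymal group 3228875. A gene therefore needed a higher level to be called higher than to be called lower, among all genes too. The collagen sum was 4409 UPM in the vas deferens and 3399 UPM in the epididymis. The median log2 ratio was -0.05 over the collagen genes and 0.12 over all genes.

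Col15a1 had the largest step, at 6.59, 10.7 and 6.37 UPM in the epididymal libraries and 161 UPM in that of the vas deferens, 18.6-fold (12.1 to 29.4). Its 98 vas deferens UMIs were spread over 64 cells. Col27a1 stood at 29.0, 15.4, 12.7 and 83.8 UPM in the same order of libraries, 4.67-fold (3.14 to 6.92), and Col5a1 was 2.80-fold higher. Col3a1 was 2.11-fold higher, but at 233, 248, 703 and 749 UPM its cauda and vas deferens levels lay together above the caput and corpus. Without the corpus library Col3a1 was 1.59-fold and without the caput library 1.91-fold higher, and 1.84-fold with median-of-ratios size factors. Col4a1 was at 167, 212, 201 and 399 UPM, 2.01-fold, and just short of 2-fold without the caput library (1.91), without called doublets (1.90) and with median-of-ratios size factors (1.75).

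On the other side were the alpha 3 and alpha 4 chains of type IV. Col4a3 was at 55.3, 85.5, 58.6 and 6.57 UPM in caput, corpus, cauda and vas deferens, 10.9 times lower (4.21 to 40.5) in the vas deferens, and Col4a4 at 204, 218, 105 and 21.4 UPM, 8.76 times lower (5.08 to 16.5). Col8a2 had 96 UMIs in epididymal and 0 in vas deferens myofibroblasts, 6.03-fold lower with the vas deferens count raised to 3 UMIs. Col12a1 was at 256, 147, 437 and 55.9 UPM. The other 6 genes counted as lower were Col7a1, Col8a1, Col11a1, Col13a1, Col16a1 and Col25a1. Among these, 1 epididymal library lay beside the vas deferens for Col13a1 (20.4 UPM in the cauda against 19.7 UPM) and Col25a1 (3.95 UPM in the caput against 3.29 UPM), and Col8a1 was at 7.91, 23.1, 118.5 and 4.93 UPM, highest in the cauda.

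Pericyte markers moved with this comparison, summing to 88.3, 226 and 106 UPM in caput, corpus and cauda and to 1068 UPM in the vas deferens, with all 5 found and Rgs5 highest at 406 UPM. Without cells that had a UMI of such a marker (61 vas deferens and 590 epididymal cells left), Col15a1 was 17.6-fold higher (9.35 to 33.0) and Col4a4 and Col4a3 stood at 0.0789 (0.0095 to 0.287) and 0.0978 (0.0025 to 0.552) of the epididymal level. Of the 15 genes, 9 were called in those cells too. Of the other 6, Col27a1 stood at 3.91-fold and Col4a1 at 1.99-fold, Col11a1 was at 0.347 of the epididymal level on 2 vas deferens UMIs, and Col25a1 and Col8a2 had 0 UMIs in the vas deferens. Col7a1, at 3 against 28 UMIs, turned from 0.442 to 1.97. A further 4 genes were called in those cells alone, with Col1a1 at 2.17-fold (1.29 in all cells), Col1a2 at 2.07-fold (1.79), Col4a5 at 2.14-fold (1.60) and Col6a2 at 0.259 of the epididymal level (0.652), the last on 4 vas deferens UMIs.

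**Figure D4:**
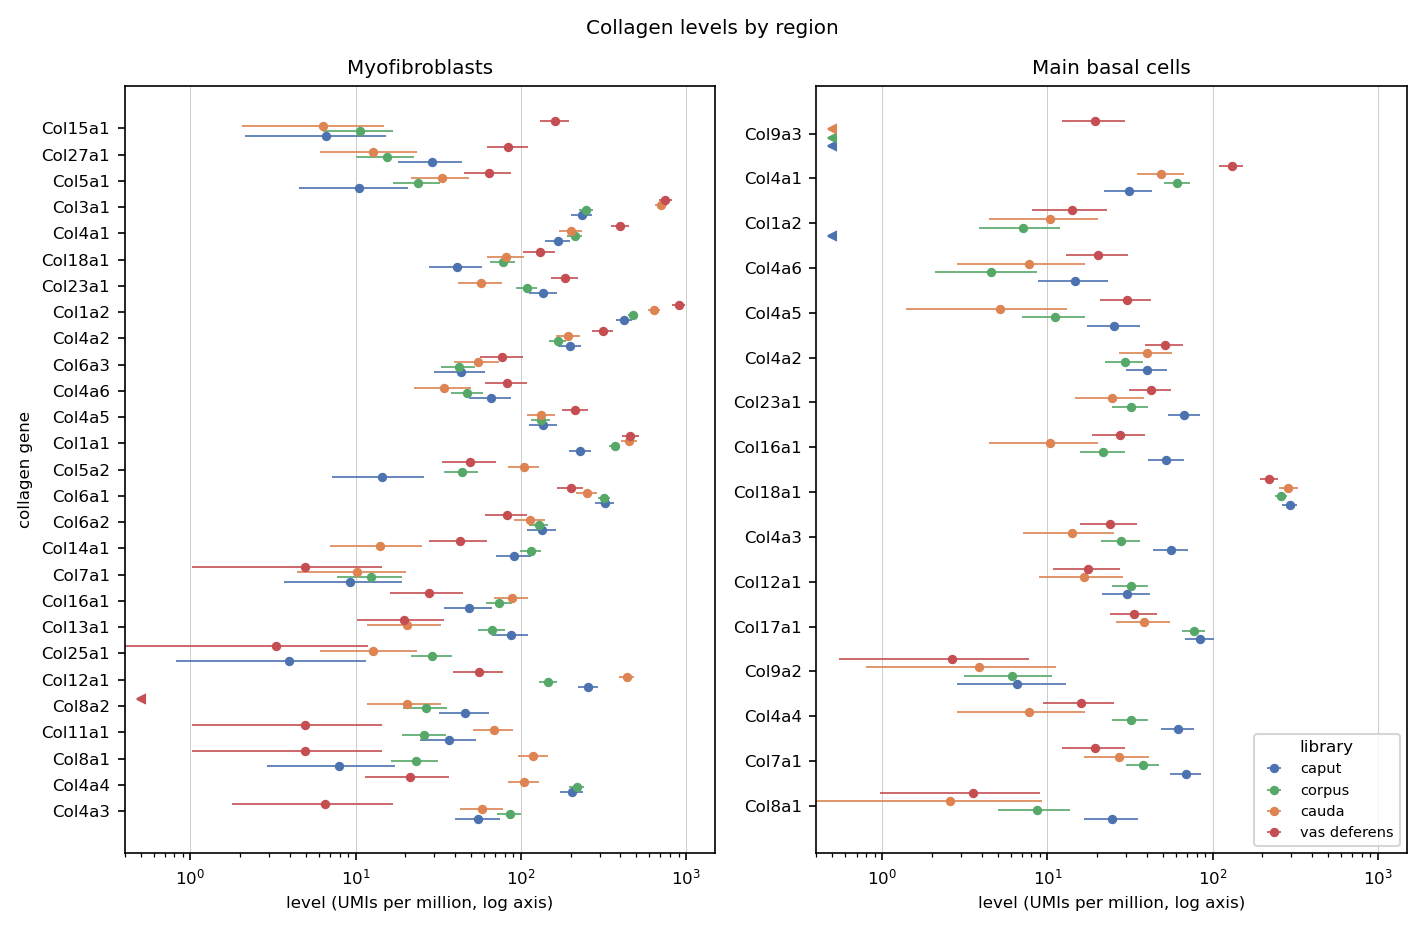
Levels of collagen genes in the 4 libraries within myofibroblasts (left) and main basal cells (right), in UPM on log axes, with 1 point per library and bars for 95% counting intervals. Left-pointing triangles mark 0 UMIs. In myofibroblasts the vas deferens point of Col15a1 (161 UPM) lies far to the right of the epididymal points and those of Col4a3 and Col4a4 far to the left.

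In main basal cells (291 in the vas deferens, 626 in the epididymis) 4 of 16 collagen genes were higher in the vas deferens, where 5.05% of 8754 genes were, and 5 were lower, where 7.87% were. Here too the vas deferens group held fewer UMIs (1129325 against 3969218), so a call as higher needed a higher level. The sums were alike, 718 and 714 UPM. Col4a1 was at 31.2, 61.3, 48.9 and 130 UPM in caput, corpus, cauda and vas deferens, 2.62-fold higher (2.10 to 3.26), Col4a6 was 2.45-fold (1.37 to 4.30) and Col4a5 2.10-fold higher (1.33 to 3.26). For both, the caput lay beside the vas deferens, with Col4a5 at 25.5, 11.1, 5.15 and 30.1 UPM and Col4a6 at 14.8, 4.56, 7.73 and 20.4 UPM, and without the caput library they were 3.19-fold and 3.74-fold higher. Col9a3 had 22 UMIs in 21 vas deferens cells and 0 in epididymal cells, 25.8-fold higher with the epididymal count raised to 3 UMIs. Lower were Col17a1, Col7a1, Col4a4, Col8a1 and Col9a2, with Col17a1 at 83.8, 77.0, 38.6 and 33.7 UPM. The cauda and vas deferens levels of Col17a1 lay together, and without the caput library 0 of the collagen genes were called lower. Markers of other cells moved with this comparison. In main basal cells of the caput, corpus, cauda and vas deferens, the muscle markers summed to 17.2, 33.4, 14.2 and 180 UPM, the endothelial markers to 9.85, 38.0, 68.3 and 133 UPM and the stromal markers to 43.5, 31.4, 23.2 and 94.8 UPM. Col4a1 was 2.52-fold higher (1.92 to 3.31) without the cells that had a muscle or stromal marker UMI, and 2.48-fold higher (1.85 to 3.31) when cells with an endothelial marker UMI were left out too. Of the 4 genes whose calls were lost without cells with a muscle or stromal marker, Col4a6 was at 2.92-fold on 16 vas deferens UMIs and Col9a3 had 17 against 0 UMIs, while Col4a4 stood at 0.641 and Col9a2 at 0.707 of the epididymal level. Without the corpus library the calls of Col17a1, Col4a5, Col4a6 and Col9a2 were lost. That of Col4a5 was also lost without the cauda library and with median-of-ratios size factors. Col4a1 in vas deferens principal cells was at 4.27 UPM.

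In endothelial cells (144 in the vas deferens, and 50, 39 and 12 in caput, corpus and cauda) 0 of 8 collagen genes were higher in the vas deferens, where 9.88% of 3634 genes were, and 5 were lower, where 9.44% were. They were Col4a2, Col13a1, Col1a1, Col1a2 and Col6a1, of which 2 were called without the caput library (Col1a1 and Col1a2) and 2 without the corpus library (Col4a2 and Col13a1). Col4a2 stood at 614, 249.5, 428 and 209 UPM in caput, corpus, cauda and vas deferens, 2.01 times lower (1.55 to 2.62), and at 0.512, 0.503 and 0.540 of the epididymal level, short of 2-fold, in cells with at least 1000 UMIs, without called doublets and with median-of-ratios size factors. Col4a1 stood at 628, 535, 536 and 345 UPM, short of 2-fold. Col13a1 was at 170, 36.5, 66.9 and 30.8 UPM. Stromal markers summed to 1168 UPM in corpus endothelial cells (Dcn 1071 UPM) and 46.2 UPM in those of the vas deferens, and pericyte markers to 586 UPM in the caput and 24.2 UPM in the vas deferens. Without cells that had a stromal, pericyte or muscle marker UMI, 70 epididymal cells held 0 UMIs of Col1a1, Col1a2, Col3a1 and Col6a1, and 110 vas deferens cells held 7, 16, 38 and 7. The lower type I and type VI levels in the vas deferens were therefore not seen in those cells, whereas Col4a1 (0.495), Col4a2 (0.503) and Col13a1 (0.327) stayed lower.

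Within the vas deferens, the stem-like stromal cells (517) and secretory stromal cells (213) had collagen sums of 7127 and 5959 UPM. Of 23 genes, 7 were at least 2-fold higher in stem-like cells, where 23.2% of 5964 genes were, 8 were lower, where 6.35% were, and 8 were neither. The main fibrillar genes were among the last, with Col1a2 at 1.23-fold, Col1a1 at 1.27-fold and Col3a1 at 1.89-fold, or 0.976, 1.005 and 1.497-fold when scaled by median-of-ratios size factors. The median log2 ratio of all genes was 0.39, above 0, and that of the collagen genes 0.36. Higher in stem-like cells were Col23a1 (199 against 10.7 UPM, 18.7-fold, 8.91 to 47.0), Col18a1 (4.73-fold), Col27a1 (4.38-fold), Col15a1 (456 against 142 UPM, 3.21-fold), Col4a6 (3.05-fold) and Col4a5 (2.83-fold). So was Col13a1, with 30 against 0 UMIs, 6.02-fold with the secretory count raised to 3 UMIs.

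Higher in secretory cells were Col6a1, Col6a2, Col6a3 and Col6a5 and the fibril-associated Col12a1, Col14a1 and Col16a1, together with Col8a1. Col6a5 was at 11.03 against 99.2 UPM, 8.995 times lower (4.82 to 18.3) in stem-like cells, Col8a1 at 2.76 against 42.7 UPM, 15.5 times lower (4.79 to 79.7), and Col6a3 at 71.7 against 278 UPM, 3.88 times lower (2.96 to 5.12). The common type IV chains Col4a1 and Col4a2 were neither, at 1.44-fold and 1.29-fold. The same 15 genes were called in cells with at least 1000 UMIs.

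**Figure D5:**
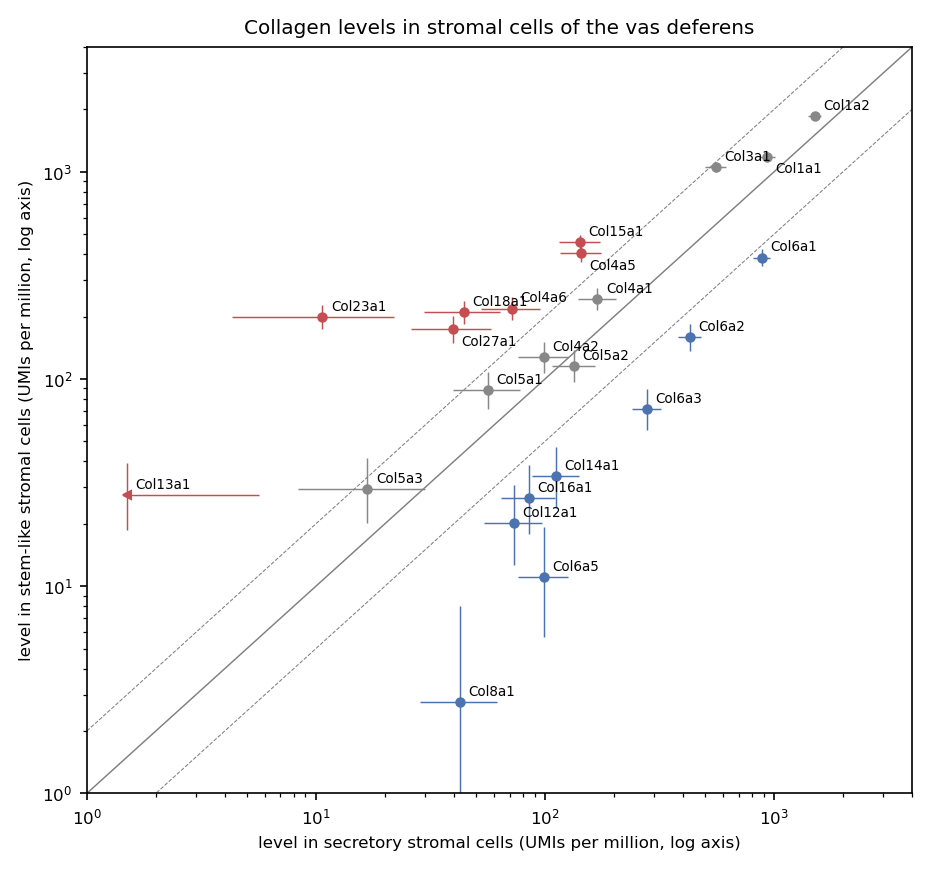
Levels of collagen genes in stem-like (vertical axis) and secretory (horizontal axis) stromal cells of the vas deferens, in UPM on log axes with bars for 95% counting intervals. Red genes are at least 2-fold higher and blue genes at least 2-fold lower in stem-like cells, grey genes neither. The solid line marks equal levels, dashed lines 2-fold, and the triangle a gene with 0 UMIs in secretory cells. Col23a1 and Col15a1 lie above the upper dashed line and Col6a5, Col6a3 and Col8a1 below the lower one.

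The 2 muscle populations came mostly from the vas deferens, with 230 of 262 muscle 1 and 207 of 240 muscle 2 cells. They differed in depth, with medians of 1080.5 UMIs in muscle 1 and 5423.5 UMIs in muscle 2, so their levels are given side by side without a call. Collagen stood at 3531 and 1397 UPM, and type IV was close to 50% of it in both (51.0% and 49.1%). By library it was 52.1% (50.1 to 54.1) of collagen in 437 muscle cells of the vas deferens and 33.96% (28.8 to 39.4) in 58 of the cauda. Col4a1 was at 948 and 363 UPM and Col6a3 at 294 and 85.9 UPM. Low-UMI basal cells (median 900 UMIs) likewise stood above the main basal cells (median 5654 UMIs), at 1932 against 715 UPM of collagen, with Col17a1 at 254 against 63.2 UPM.

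Genes that handle collagen were taken from 6 lists. Of 21 folding and modification genes in the matrix 19 had 20 UMIs in a type. Of these, 2 were restricted to a type, near the 10.4% of all 12868 genes that were. In stromal cells, 11 were highest, where 11.7% of all 12868 genes were. The list's most abundant members, Ppib (a prolyl isomerase) and P4hb (a subunit of prolyl 4-hydroxylase), were highest in principal 3 (1708 UPM) and in low-UMI clear cells (664 UPM), both outside the stroma. The collagen chaperone Serpinh1 was at 372 UPM in stromal, 213 UPM in endothelial and 8 UPM in principal cells. Of the processing and crosslinking genes, 8 of 11 were highest in stromal cells. Of the 11, 4 were restricted to stromal cells, where 1.4% of all genes were, and 1 to endothelial cells, where 1.42% were. The list was led by Pcolce, an enhancer of procollagen cleavage (1370 UPM in fibroblast C2), and Lox, a crosslinking oxidase (441 UPM in fibroblast C4). Turnover genes were highest in stromal cells for 8 of 17, where 11.7% of all genes were. The most abundant of the list were the protease inhibitors Timp3 and Timp2. Timp3 was at 1398 UPM in fibroblast C4 and nearly as high in endothelial cells (1356 UPM), and Timp2 at 1819 UPM in fibroblast C2.

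Of 7 collagen receptors, 3 were highest in muscle cells, where 16% of all genes were, and 1 each in stromal, endothelial, basal and clear cells. Itgb1, the common integrin beta 1 chain, was at 2748 UPM in muscle 1, and Ddr2, a receptor kinase for fibrillar collagen, at 377 UPM in muscle 1. Of 17 laminin and other basement membrane genes, 7 were highest in stromal and 5 in basal cells, where 8.3% of all genes were. Sparc reached 10639 UPM in fibroblast C2. Of 9 small leucine-rich proteoglycans, which bind fibrils, 8 were highest in stromal cells (11.7% of all genes) and 5 restricted to them (1.4% of all genes), with Dcn at 19090 UPM in secretory stromal cells and Bgn at 4063 UPM in fibroblast C2.

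Between stem-like and secretory stromal cells, 23.2% of all genes were higher and 6.35% lower in stem-like cells. Laminins and other basement membrane genes had 4 of 11 higher and 0 lower, with Lamc3 at 60.7 against 4.58 UPM, 13.3-fold (4.34 to 65.9). The small proteoglycans had 1 of 8 higher and 6 lower, with Aspn at 78.1 against 655 UPM and Dcn at 9549 against 19167 UPM. Their median log2 ratios were 0.75 and -1.23.

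In vas deferens myofibroblasts, where 6.32% of all genes were higher and 8.51% lower, 3 of 9 small proteoglycans (Lum at 293 against 2.48 UPM) and 2 of 4 receptors (Ddr1 and Ddr2) were higher. Of 19 folding genes there, 4 were lower and 1 (Leprel4) higher. In vas deferens basal cells 3 of 4 small proteoglycans (Dcn, Bgn and Fmod) and 2 of 15 folding genes (P4ha1 and P4ha2, catalytic subunits of prolyl 4-hydroxylase) were higher, where 5.05% of all genes were, and the fourth small proteoglycan, Ogn, was lower on 3 against 30 UMIs. Dcn is also a stromal marker, and the stromal marker sums given above moved the same way. In vas deferens endothelial cells 3 of 4 small proteoglycans were lower, where 9.44% of 3634 genes were, with Dcn at 30.8 against 512 UPM. The stromal marker sums given above were lower there too.

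Genes most alike to the class sums were found by Pearson's r of log2(UPM + 10) over the 30 populations with at least 50 cells, among 9280 genes with at least 200 UMIs. These populations share libraries and differ in depth, so r is a description. For the fibrillar sum the 5 were Bgn (0.97), Fstl1 (0.97), Calml4 (0.96), Igfbp6 (0.95) and Ndn (0.95). For type IV they were Hspg2 (0.97), which encodes the basement membrane proteoglycan perlecan, Tmem47 (0.96), Fermt2 (0.96), Igfbp7 (0.95) and Timp3 (0.95).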

How the data were processed

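Single-cell libraries were made with the Chromium 3′ kit, 1 per region. The authors demultiplexed with bcl2fastq, aligned reads with HISAT2 2.0.4 to mm10 (GRCm38), counted UMIs on RefSeq genes with ESAT, merged UMIs with sequencing errors, kept cells within limits of total UMIs, and removed an estimate of ambient RNA with a modified SoupX. The deposited values used are whole UMI counts per gene and cell after that removal, which took 2.80% to 4.48% of a library's UMIs. The deposited cell table gives library, cluster and subcluster, and the UMI counts before removal, which were used only for this share. Its labels were matched to the names of the study through numbers of cells, without re-clustering. Subtraction of ambient RNA lowers the levels of abundant collagens in other cells and could not be undone.

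From the counts, levels were summed UMIs per 1000000 UMIs of a group, with exact Poisson intervals for levels, exact conditional binomial intervals for ratios and Clopper-Pearson intervals for shares, all at 95% and for counting error only. A count of 0 allows up to 3 UMIs of a group's total, which is 0.46 UPM in stromal and 5.15 UPM in immune cells. With 1 library per region, and clusters made from the same counts, no test was run. Cells are not replicates and gave no p-value.

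The thresholds were 20 UMIs with 4-fold for types and 2-fold between groups. Full values go to the 3 most abundant genes of each class, restricted genes, genes past 2-fold where at most 6 are and otherwise the 3 largest each way, neighbouring pairs, and the 2 highest genes of each list. One list member that this rule names is not reported here. Serpinh1 and the list members named between groups were chosen after their values were seen. The collagen genes, lists and rules were chosen with earlier results of these data known. Doublets (178 of 8880 cells, at an assumed 0.8% per 1000 cells) were called by simulated doublets and kept. The rules were tested on simulated data. Positions are from GENCODE M21 and sequences from RefSeq GRCm38.p6. Alternatives changed thresholds, cells, weighting and libraries. Software was Python 3.11.15 with matplotlib 3.10.9, scikit-learn 1.9.0, pandas 2.3.3, scipy 1.17.1 and numpy 2.4.6. The study's bulk RNA data were not used here.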

Additional observations from a re-analysis of the deposited data

Results flagged for a closer look

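A total of 3 genes stood out because the vas deferens library lay to one side of all 3 epididymal libraries in one population and to the other side in another. They were 3 of the 15 collagen genes with at least 40 UMIs in more than 1 of the 3 populations (20%), and 15.1% of all 6575 such genes lay likewise, so the count is near that of all genes. Each value is the log2 ratio of the vas deferens level to the pooled epididymal level. Col4a1 was at 1.004 in myofibroblasts and 1.39 in main basal cells but -0.72 in endothelial cells. Col4a2, its partner chain, was at 0.79 in myofibroblasts and 0.56 in main basal cells but -1.01 in endothelial cells. Col18a1 was at 0.89 in myofibroblasts and 0.36 in endothelial cells but -0.33 in main basal cells, and its endothelial level in the vas deferens, 114 UPM, was level with the 113 UPM of the caput. With 1 library per region the difference between populations was not tested. The endothelial values rest on 101 epididymal cells, 12 of them from the cauda.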

How the results depend on the processing

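Alternatives for the 7 main results and the added endothelial comparison kept 44 of 80 values within their spread or within 1.5 times the count. The collagen share of stromal UMIs, 0.568%, was 0.557% in cells with at least 1000 UMIs, 0.619% as a mean over cells and 0.551% with libraries weighted equally, and 0.532% to 0.598% with one library left out. The stromal to muscle ratio, 3.12, was 2.40 over cells, 2.80 with libraries weighted equally and 3.66 without muscle 1 and fibroblast C4 (chosen after seeing the data), and 2.74 to 3.29 with one library left out. The type IV share in endothelial cells, 51.6%, was 47.6% over cells, 56.2% with libraries weighted equally and 60.3% with Col15a1 and Col18a1 counted in, and 48.6% to 55.9% with one library left out. Restricted collagen genes numbered 20 at 2-fold and 4 at 8-fold, and 8 to 12 with one library left out.

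Genes past 2-fold between vas deferens and epididymis in myofibroblasts, 15, numbered 25 at 1.5-fold and 25 with no filter on UMIs (15 higher and 10 lower, against 5 and 10). They numbered 13 to 16 with one library left out, and Col25a1 and Col7a1 lost their calls without the corpus library. Without cells with a pericyte marker, Col7a1 reversed to 1.97-fold, on 3 vas deferens UMIs. In basal cells the 9 became 2 at 3-fold, 20 with no filter (15 higher, 5 lower), 4 with at least 50 UMIs, 5 without cells with a muscle or stromal marker and 5 when those with an endothelial marker were left out too, and 4 to 8 with one library left out. Without the caput library, Col17a1, Col7a1, Col4a4, Col8a1 and Col9a2 lost their calls. In endothelial cells the 5 became 0 at 3-fold, 11 with no filter, 2 with at least 50 UMIs and 3 without cells with a marker of other types (of the 5 only Col13a1, with Col4a1 lower and Col3a1 higher), and 2 to 5 with one library left out. The 15 genes between stem-like and secretory stromal cells stayed within 12 to 18. Among 559 values of single genes, 509 were within their spread, 49 moved and 1 reversed. The causes of these shifts were not tested. Endothelial comparisons and the cells left out by markers were chosen after seeing the data. No paired analysis was possible because the regions share only 1 replicate number. Cell types, which share libraries, were not tested because the clusters were made from these counts. Depth limits genes under 20 UMIs and the fibroblast C4, low-UMI clear, muscle 1 and low-UMI basal values, and the cauda endothelial values rest on 12 cells.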

Other observations

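Collagens with few UMIs still lay unevenly. Col19a1, a minor fibril-associated collagen, had 13 of its 20 UMIs in vas deferens myofibroblasts, 1 in each of 13 cells. Fibroblast C4 held 4695, 6293, 10788 and 5116 UPM of collagen in caput, corpus, cauda and vas deferens, on 66, 182, 34 and 37 cells. Stromal cells outside the vas deferens were few in some populations, with 16 stem-like stromal cells in the corpus at 11311 UPM and 11 in the cauda at 8403 UPM. Among principal cells, principal 10 had the most collagen RNA (235 UPM, 187 to 291), 68 of its 83 UMIs from the class of other collagens, and principal 1 the least (9.80 UPM, 3.18 to 22.9). Clear cells of the vas deferens stood at 607 UPM of collagen, from 91 UMIs in 38 cells, against 290 to 338 UPM in the other 3 libraries, with Col1a1 at 26.7 UPM there and 0 to 10.7 UPM elsewhere.

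Genes most alike to the sum of the other collagens, by the same measure, were Sgce (Pearson's r of 0.91), Prkca (0.91), Rbms3 (0.90), Igfbp7 (0.90) and Pvrl3 (0.90) over 30 populations, again a description of populations that share libraries.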
